A study of Mus musculus with 51 samples.

Results

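The piRNA pathway genes were followed through meiotic prophase I by the peaks of histone H3 marks called at their transcription start sites (TSSs). There were 10 members, namely Piwil1, Piwil2, Piwil4, Ddx4, Mael, Mov10l1, Tdrd1, Tdrd5, Tdrd6 and Tdrd9, of 20722 protein-coding genes on chromosomes 1 to 19. They were chosen by name, as genes of the pathway, with earlier results of these data known. A gene was called in a list when a peak overlapped, by at least 1 bp, a window of 500 bp to each side of the start of any of its protein-coding GENCODE M21 transcripts on mm10. The width of the gene was that of the widest such peak.

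All nuclei came from whole testis of adult, wild-type C57Bl/6J male mice and were sorted by flow cytometry into leptonema (LE), zygonema (ZY), early pachynema (EP), late pachynema (LP) and diplonema (DI). SCP3, an axial protein of meiotic chromosomes, was used in every sort, with STRA8 for leptonema in 1 sort and with SCP1 and the testis-specific histone H1t for the other stages in a second sort. The sorts were not pure, and neighbouring stages share some nuclei. For H3K4me3 (EpiCypher antibody) 10 lists were used, 2 per stage, named here by their experiment, 1 or 2. For H3K4me2/3 (an Abcam antibody that binds both forms) and for H3K9ac each stage had a single list, 5 in all for each mark, made in experiment 2 and in experiment 1 respectively. The antibody entry in the H3K9ac labels names H3K4me3 beside a catalogue number that other labels give for H3K9ac, and these lists are called H3K9ac here as in their titles. Every list was called on 1 library.

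piRNAs are small RNAs of the germ line that guide PIWI proteins to the transcripts of transposons and of other loci. Mouse male germ cells make a fetal set, loaded mainly on MIWI2 (Piwil4) and MILI (Piwil2), and a pachytene set, loaded on MILI and on MIWI (Piwil1), for which the transcription factor A-MYB (Mybl1) is the main activator. The precursors are processed at the surface of mitochondria, and the bound proteins collect in cytoplasmic granules that are held together by Tudor domain proteins. H3K4me3 and H3K9ac mark the promoters of active and poised genes, and H3K4me2 extends further around them.

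Promoter sequences were available in RefSeq (GRCm38.p6, 250 bases before to 50 after the start) for 8 of the 10 members, in 11 entries. Piwil2 and Tdrd6 had no entry. The E-box CACGTG, which reads the same on both strands, was present in 6 of the 8 genes (Piwil1, Ddx4, Mael, Mov10l1, Tdrd1 and Tdrd9). It was present in 8.09% of all 27025 genes with an entry, and in 12.5% of the 3014 genes with an entry and an H3K4me3 peak in all 10 lists. Among other genes of the pathway, listed further on, it was present in 4 of the 14 with an entry (28.6%). The MYB core AACNG, searched on both strands, was found in 8 of 8 members and in 82.4% of all genes, so that its presence does not set the members apart. The longer A-MYB word AACTGCC, which overlaps the core, was found in Piwil1 alone among the members and in 4.76% of all genes. The E2F6 word GGCGGGA was found in Ddx4 and Mael and in 12.7% of all genes. These matches describe letters and do not show that a factor was bound.

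The stretches just upstream of the called starts (for Piwil4, of its most upstream start) are shown for 6 members that stand for the different courses described here, with the E-box in capitals. For Piwil1 the stretch lies in an intron of the transcript that starts at 128702524, and for the other 5 it lies upstream of every annotated start. Piwil1 and Tdrd9 each hold 2 E-boxes, and their H3K4me3 calls were mainly at the later stages. Mov10l1 was called in every list, Tdrd1 and Mael in every H3K4me3 list, and Piwil4, with no E-box, in no H3K4me3 list. Tdrd5, whose stretch is not shown, also had no E-box and was called in every H3K4me3 list. A relation between E-boxes and calls was not tested. The regions are chr5:128735996-128736173 (plus strand), chr12:111971309-111971558 (plus), chr15:88982744-88982908 (plus), chr19:56825959-56826208 (plus), chr1:166238748-166238994 (minus) and chr9:14740734-14740922 (minus).
Piwil1: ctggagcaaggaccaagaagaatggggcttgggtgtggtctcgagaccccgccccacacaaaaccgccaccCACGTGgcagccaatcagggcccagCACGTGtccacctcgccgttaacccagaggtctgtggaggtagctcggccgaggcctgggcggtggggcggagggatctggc
Tdrd9: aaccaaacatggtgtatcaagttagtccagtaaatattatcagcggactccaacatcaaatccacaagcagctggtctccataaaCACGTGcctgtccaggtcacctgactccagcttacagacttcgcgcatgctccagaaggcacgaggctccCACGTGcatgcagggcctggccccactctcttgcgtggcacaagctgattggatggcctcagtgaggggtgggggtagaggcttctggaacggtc
Mov10l1: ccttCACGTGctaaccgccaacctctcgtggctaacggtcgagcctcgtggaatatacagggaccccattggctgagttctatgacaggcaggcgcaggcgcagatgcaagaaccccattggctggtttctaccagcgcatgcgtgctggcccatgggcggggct
Tdrd1: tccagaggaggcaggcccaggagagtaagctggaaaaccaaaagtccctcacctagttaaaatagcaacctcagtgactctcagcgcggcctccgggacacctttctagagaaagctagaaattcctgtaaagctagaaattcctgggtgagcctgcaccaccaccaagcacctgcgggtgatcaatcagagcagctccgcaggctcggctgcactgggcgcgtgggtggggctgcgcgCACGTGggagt
Mael: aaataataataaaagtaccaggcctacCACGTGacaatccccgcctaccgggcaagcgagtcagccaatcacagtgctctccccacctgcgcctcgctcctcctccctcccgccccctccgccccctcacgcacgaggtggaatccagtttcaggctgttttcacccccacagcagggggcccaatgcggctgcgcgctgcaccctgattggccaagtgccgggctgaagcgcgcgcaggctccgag
Piwil4: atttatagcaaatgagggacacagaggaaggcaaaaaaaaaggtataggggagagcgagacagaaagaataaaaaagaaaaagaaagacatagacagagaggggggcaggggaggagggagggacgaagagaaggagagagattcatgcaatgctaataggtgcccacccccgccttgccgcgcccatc

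With an overlap of at least 1 bp, the members were called more often than genes in general at every stage. H3K4me3 was called at 6 or 7 of 10 members per list in leptonema and zygonema. In the later lists it was called at 8 or 9 of 10. In the leptonema lists, 38.7% and 46.3% of all genes had an H3K4me3 peak, against 6 and 7 members in experiments 1 and 2. In zygonema these shares were 36.2% and 35.3%, with 7 members in each list. Early pachynema had 9 and 8 members, with 33.6% and 25.2% of all genes. Late pachynema had 9 members in each list, with 26.4% and 39.7% of all genes, and diplonema also had 9 in each, with 28.7% and 46% of all genes. The later lists had more members than the early ones, while their shares of all genes overlapped. Piwil2, Ddx4, Mael, Mov10l1, Tdrd1 and Tdrd5 were called in all 10 H3K4me3 lists, which held for 18% of all genes. The separation of early and later lists depended on how a call was made: when a peak had to cover at least 50% of a window, between 2 and 5 members were called in the early lists and between 1 (early pachynema experiment 2) and 9 in the later ones, with 19.6% to 35.6% and 8.03% to 33% of all genes. With the widest 4883 peaks of each list, 0 to 3 members were called in the early and 8 or 9 in the later lists. All genes then split in the same direction, with 11.5% to 22.4% called in the early and 22.5% to 25.9% in the later lists. Under both of these rules the members fell below all genes in leptonema and zygonema of experiment 1. With 50% of a window covered, 2 of 10 members were called in each, against 23.2% and 22.7% of all genes. With the widest peaks 2 and 0 of 10 were called, against 21.7% and 11.5%. In the other H3K4me3 lists the share of members was the higher one.

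**Figure D1:**
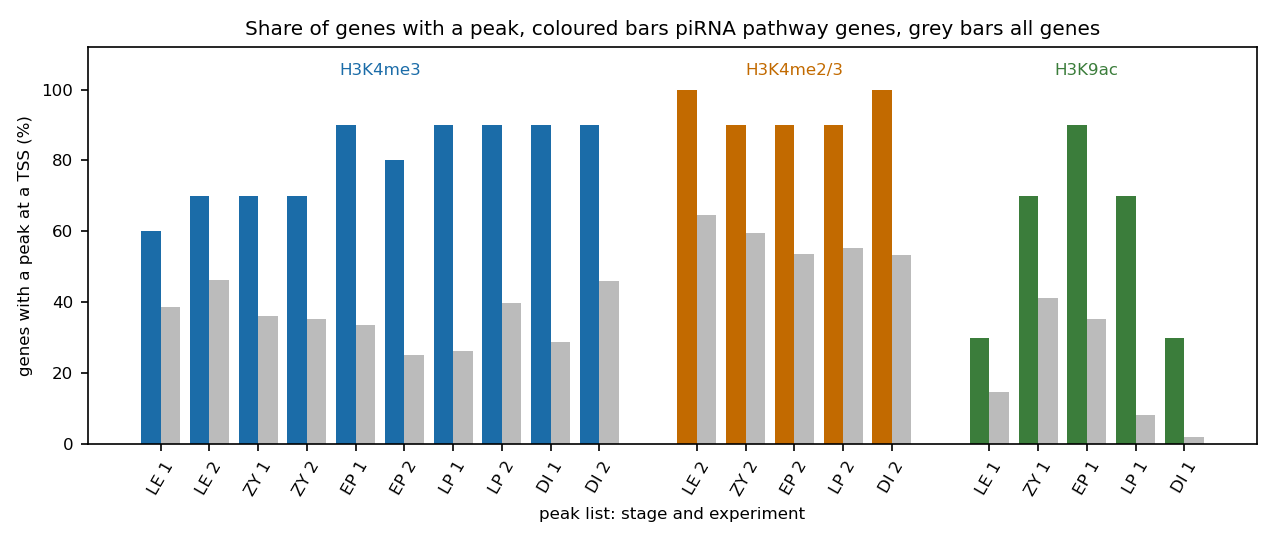
Share of genes with a peak at a TSS (%, vertical axis) in each of the 20 peak lists (horizontal axis: stage and experiment). Coloured bars show the 10 piRNA pathway genes and grey bars all 20722 protein-coding genes; each bar is 1 list, with no error. The coloured bar is above the grey one in every list, and in the H3K9ac list of diplonema 3 members were called against 1.99% of all genes.

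The lists differed in length, from 4883 to 15699 H3K4me3 peaks, with a median width between 380 bp and 773 bp, and they hold no score or read count, so that the depth behind a call cannot be read from them. A weaker mark in each nucleus and fewer nuclei with the mark cannot be told apart, and a gene without a call may still carry the mark. Of the meiotic prophase markers, 6 of 6 were called in both leptonema H3K4me3 lists and 3 or 4 of 6 in the diplonema lists, and H3K4me3 at Stra8 was called only in leptonema. Among 5 Sertoli cell markers, 3 (Sox9, Wt1 and Gata4) had an H3K4me3 peak in leptonema experiment 2 and 4 in the H3K4me2/3 list of that stage. In the H3K4me3 lists of early pachynema to diplonema none of the 5 was called, and Amh was called in no list. No macrophage or blood marker was called in any list. Of 6 spermatid markers, Spaca1 alone had H3K4me3 peaks, and the protamine genes Prm1 and Prm2 had none. The part of other cells in the results was not tested.

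**Figure D2:**
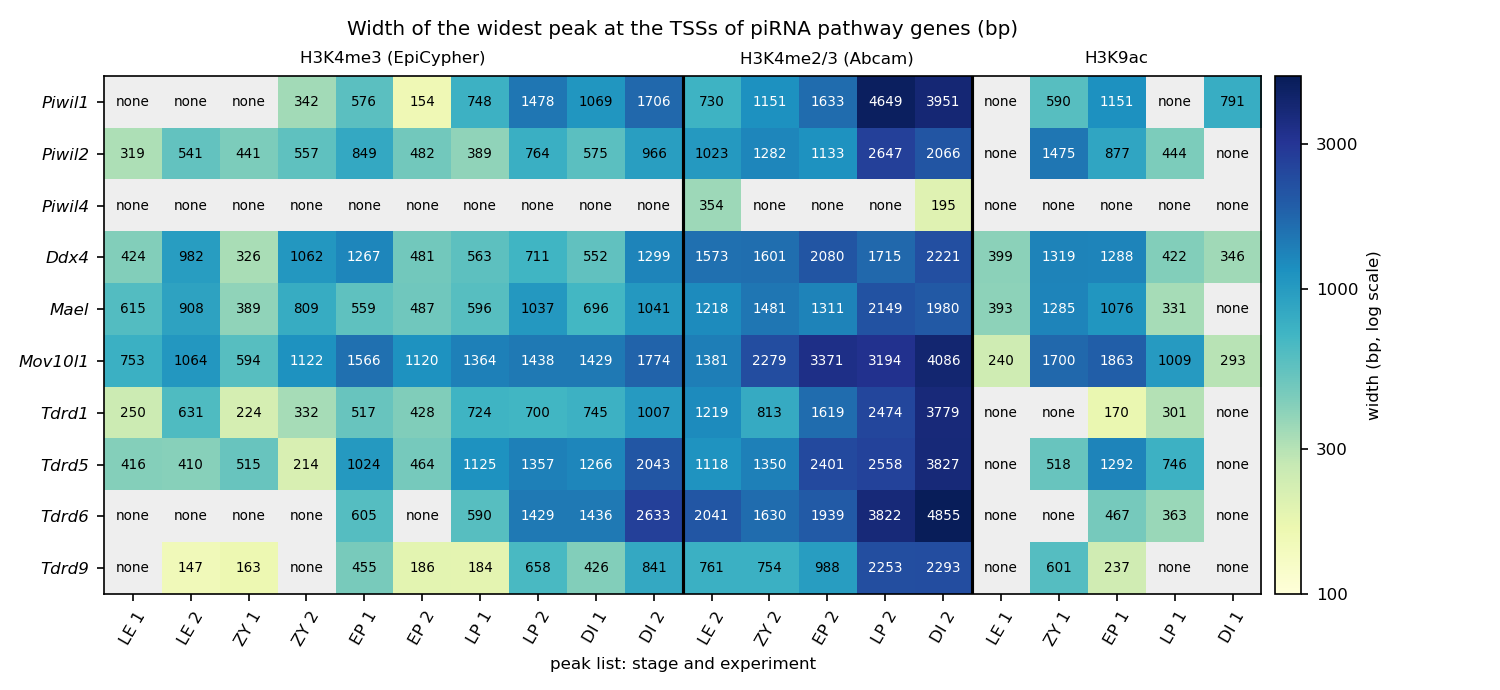
Width in bp of the widest peak at the TSSs of each of the 10 members (rows) in each of the 20 lists (columns: stage and experiment, grouped by mark). Colour gives the width on a log scale and "none" means that no peak was called. Within H3K4me3, the later columns of Piwil1, Tdrd5 and Tdrd6 hold the widest peaks of these genes, up to 1706 bp, 2043 bp and 2633 bp, and Piwil4 is empty but for 2 H3K4me2/3 lists.

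Among the PIWI proteins, Piwil1 had H3K4me3 calls mainly in the later lists. It encodes MIWI, the main partner of pachytene piRNAs. No peak was called in leptonema or in zygonema experiment 1, and zygonema experiment 2 had a peak of 342 bp. The widths in experiments 1 and 2 were 576 bp and 154 bp in early pachynema, 748 bp and 1478 bp in late pachynema, and 1069 bp and 1706 bp in diplonema. It was therefore called in 1 of 4 early lists and in 6 of 6 later lists. All H3K4me3 calls lay at the TSS at position 128736174 of chromosome 5 (plus strand), and none at the annotated starts at 128702524 and 128737490. The window at 128737490 was overlapped in 2 of the 5 H3K4me2/3 lists. The two-sided exact permutation test of the libraries (210 splits) gave p = 0.0333, and the adjusted p over 7486 genes was 0.621.

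The H3K4me2/3 lists had a Piwil1 peak at every stage, of 730 bp in leptonema, 1151 bp in zygonema, 1633 bp in early pachynema, 4649 bp in late pachynema and 3951 bp in diplonema. In leptonema of experiment 2 the gene thus had an H3K4me2/3 peak and no H3K4me3 peak, as had Piwil4 and Tdrd6. This combination was found in 3 of 10 members and in 18.5% of all genes. It held in zygonema for Tdrd6 and Tdrd9 (24.2% of all genes), in early pachynema for Tdrd6 (28.5%), in late pachynema for no member (15.9%) and in diplonema for Piwil4 (7.7%). The late pachynema peak reached from 1653 bp upstream to 2995 bp downstream of the TSS and was wider than 97.9% of the H3K4me2/3 peaks at genes of that list. H3K9ac peaks of 590 bp in zygonema, 1151 bp in early pachynema and 791 bp in diplonema were called, and none in leptonema and late pachynema. In the short diplonema list the Piwil1 peak ranked 32 of the 412 genes called. The start of 4930553I04Rik, a transcript of unclear status on the other strand, lies 145 bp away and was covered by the Piwil1 peak in 13 lists, so that the peak cannot be given to Piwil1 alone.

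Piwil2, which encodes MILI, the PIWI protein present from fetal germ cells onwards, was called in all 10 H3K4me3 lists. In experiments 1 and 2 its peak was 319 bp and 541 bp wide in leptonema, 441 bp and 557 bp in zygonema, 849 bp and 482 bp in early pachynema, 389 bp and 764 bp in late pachynema and 575 bp and 966 bp in diplonema. The early and later widths overlap. Its H3K4me2/3 peak was widest in late pachynema, at 2647 bp, against 1023 bp in leptonema. H3K9ac was called in zygonema (1475 bp), early pachynema (877 bp) and late pachynema (444 bp). The start of Gm24890, a small nuclear RNA gene, lies 786 bp away and was covered by the Piwil2 peak in 11 lists, 4 of them H3K4me3.

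Piwil4, which encodes MIWI2, the nuclear PIWI protein of fetal transposon silencing, had no peak in any H3K4me3 or H3K9ac list. No H3K4me3 peak was called at 45.9% and no H3K9ac peak at 56.6% of all genes. Its H3K4me2/3 peaks, of 354 bp in leptonema and 195 bp in diplonema, were among the narrowest of their lists, wider than 2.4% and 1.11% of those at genes. It was the member with the fewest calls under each mark. The promoter entry around its called start had a ratio of observed to expected CpG of 0.543, while the 11 entries of the members ranged from 0 to 1.11 and the median over all 32851 entries was 0.384.

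Ddx4 and Mov10l1, which encode RNA helicases of the pathway, were called in all 20 lists, as were 0.777% of all genes. Ddx4 (mouse vasa homolog) is a marker of the germ line from fetal life on. Its H3K4me3 widths in experiments 1 and 2 were 424 bp and 982 bp in leptonema, 326 bp and 1062 bp in zygonema, 1267 bp and 481 bp in early pachynema, 563 bp and 711 bp in late pachynema and 552 bp and 1299 bp in diplonema. Early and later widths covered nearly the same range. Its H3K4me2/3 peak measured 1573 bp in leptonema and 2221 bp in diplonema. H3K9ac peaks were 1319 bp and 1288 bp wide in zygonema and early pachynema, and between 346 bp and 422 bp in the other lists.

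MOV10L1 binds piRNA precursors and is needed to make both fetal and pachytene piRNAs. The H3K4me3 peak at Mov10l1 measured 753 bp and 1064 bp in leptonema, 594 bp and 1122 bp in zygonema, 1566 bp and 1120 bp in early pachynema, 1364 bp and 1438 bp in late pachynema and 1429 bp and 1774 bp in diplonema. All but 1 of the later widths exceeded every early width, the exception being early pachynema experiment 2 at 1120 bp, just below zygonema experiment 2 at 1122 bp. In early pachynema experiment 1 it ranked 195 of the 6962 genes called. The H3K4me2/3 widths from leptonema to diplonema were 1381 bp, 2279 bp, 3371 bp, 3194 bp and 4086 bp. The H3K9ac peak measured 240 bp, 1700 bp, 1863 bp, 1009 bp and 293 bp from leptonema to diplonema. All calls were at the starts at 88982909 and 88982994 of chromosome 15, and none at the internal start at 89023613.

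Mael, which encodes maelstrom, a protein of the germ granules needed for transposon silencing, had H3K4me3 peaks between 389 bp and 908 bp in the 4 early lists and between 487 bp and 1041 bp in the 6 later lists. The groups overlapped. Its H3K4me2/3 peak was between 1218 bp in leptonema and 2149 bp in late pachynema, and H3K9ac was called in every list but that of diplonema.

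Tudor domain proteins bind methylated arginines of PIWI proteins. Tdrd6, whose product is a component of the chromatoid body of spermatids, was called in 0 of the 4 leptonema and zygonema H3K4me3 lists and in 5 of the 6 later lists. The widths were 605 bp in early pachynema experiment 1, 590 bp and 1429 bp in late pachynema and 1436 bp and 2633 bp in diplonema, with no peak in early pachynema experiment 2, the shortest H3K4me3 list. In diplonema experiment 2 the Tdrd6 peak was wider than 97.8% of those at called genes. The exact permutation test gave p = 0.0476 and an adjusted p of 0.621. H3K4me2/3 was called at every stage, at 2041 bp in leptonema, 1630 bp in zygonema, 1939 bp in early pachynema, 3822 bp in late pachynema and 4855 bp in diplonema. H3K9ac was called in early pachynema (467 bp) and late pachynema (363 bp) only.

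Tdrd9 encodes a further RNA helicase with a Tudor domain, which acts with MIWI2 in fetal germ cells. It was called in 2 of 4 early H3K4me3 lists, at 147 bp in leptonema experiment 2 and 163 bp in zygonema experiment 1, and in 6 of 6 later lists. The later widths in experiments 1 and 2 were 455 bp and 186 bp in early pachynema, 184 bp and 658 bp in late pachynema and 426 bp and 841 bp in diplonema. Counting no call as a width of 0, every later width exceeded every early width, which held for no other member and for 1.1% of the 11215 genes called in any H3K4me3 list. The narrowest later peak, at 184 bp, was close to the widest early one, at 163 bp. The permutation test of its calls gave p = 0.133 (exact, two-sided) and an adjusted p of 0.675.

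Tdrd5, a Tudor domain gene whose product is needed in the assembly of the chromatoid body, was called in all 10 H3K4me3 lists. Its peak measured 416 bp and 410 bp in leptonema, 515 bp and 214 bp in zygonema, 1024 bp and 464 bp in early pachynema, 1125 bp and 1357 bp in late pachynema and 1266 bp and 2043 bp in diplonema. Only early pachynema experiment 2 lay within the early range. In the 4 early lists the peak began between 12 bp and 19 bp downstream of the most upstream TSS, at 156303664 of chromosome 1 (minus strand), and in late pachynema and diplonema it reached between 368 bp and 578 bp upstream. A noncoding antisense gene, 4930518J20Rik, starts 175 bp away. Its start lay within the peak in 18 lists, among them all 10 of H3K4me3, so that the peak cannot be given to Tdrd5 alone.

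Tdrd1, which encodes a germ granule protein that binds MILI, had H3K4me3 peaks of 250 bp and 631 bp in leptonema, 224 bp and 332 bp in zygonema, 517 bp and 428 bp in early pachynema, 724 bp and 700 bp in late pachynema and 745 bp and 1007 bp in diplonema. Leptonema experiment 2 was the only early list above any later one. Its H3K4me2/3 peak was 813 bp wide in zygonema and 3779 bp in diplonema. H3K9ac was called in early pachynema (170 bp) and late pachynema (301 bp). The start at 56830712 of chromosome 19 was called in no list.

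**Figure D3:**
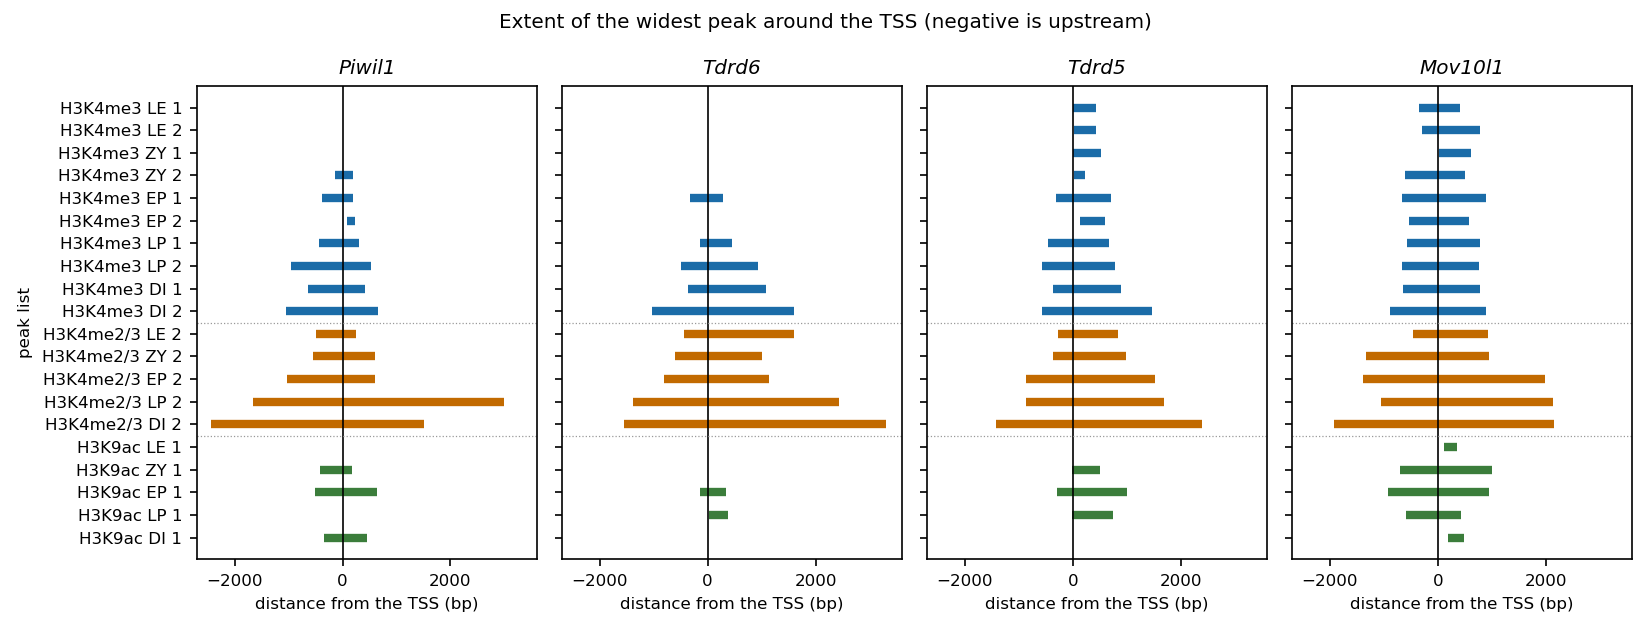
Extent of the widest peak around the TSS (horizontal axis, distance in bp, negative is upstream) in each of the 20 lists (rows) at Piwil1, Tdrd6, Tdrd5 and Mov10l1; blue is H3K4me3, orange H3K4me2/3 and green H3K9ac. A row without a bar has no peak. At Tdrd6 the H3K4me3 bars start at early pachynema, while the H3K4me2/3 bars are present from leptonema, where the peak was 2041 bp wide.

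The tests over all genes asked whether leptonema and zygonema differed from the later stages in H3K4me3. Piwil1, Tdrd6 and Tdrd9 were called in a higher share of the later lists, as were 10.4% of all genes, and no member in a higher share of the early lists, as were 25.3%. With at least 50% of a window covered, 5 members and 10.5% of all genes were called in a higher share of the later lists, and Mael and 28.3% in a higher share of the early ones. With equal list sizes these were 9 members and 23.4%, and no member and 11.6%. In the permutation test of calls no gene passed (0%), and 531 of 7486 genes had an unadjusted p under 0.05. The smallest p that 210 splits can give is 0.00476. For genes at this p alone to pass the adjustment, at least 713 would have to share it, and 143 did. Of the 531 genes with an unadjusted p under 0.05, 118 (1.58% of those tested) were called more in the later stages, among them Piwil1 and Tdrd6. The other 413 (5.52%) were called more in leptonema and zygonema, with no member. With labels permuted within each experiment, the replicate block, the exact p was 0.04 for Piwil1 and 0.06 for Tdrd6. The smallest adjusted p of the permutation test over all genes was 0.249 without this block and 0.523 with it. When the 4883 widest peaks of each longer list were used, the split of unadjusted calls turned to 783 and 142, and Piwil2, Tdrd1 and Tdrd5 were called in 0 of 4 early and 6 of 6 later lists. Piwil1 was then also called in 0 of 4 and 6 of 6. This rule gives each list its own width cut-off, so that these calls depend on the length of the list. At Piwil2, peaks of 541 bp (leptonema experiment 2) and 557 bp (zygonema experiment 2) were dropped. Those of 482 bp (early pachynema experiment 2) and 389 bp (late pachynema experiment 1) were kept.

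Widths were compared over the 3729 genes called in all 10 H3K4me3 lists, as log2 of the width centred on the median of each library, with limma. In the later stages, 162 genes (4.34%) were wider and 161 (4.32%) narrower, 8.66% in either direction. Of the 6 members with a width in every list, Tdrd5 was wider in the later stages by 1.69 ± 0.25 (log2, SE; adjusted p = 0.00558) and Tdrd1 by 1.12 ± 0.27 (adjusted p = 0.0269). Mov10l1 (0.85 ± 0.26, adjusted p = 0.0575), Piwil2 (0.60 ± 0.22, adjusted p = 0.0991), Ddx4 (0.39 ± 0.36, adjusted p = 0.516) and Mael (0.23 ± 0.26, adjusted p = 0.606) did not pass. The log2 difference was above 0 for all 6, with a median of 0.73 against 0.00052 over all genes tested. That of Tdrd5 was above 99.9% of the genes tested. The centring places the median over all genes near 0, so that each difference is relative to the genes tested. Without centring this median was -0.11. Over the 5 stages, the F test of the same fit passed for Tdrd5 (adjusted p = 0.0437) and for no other member, and for 0.536% of the genes.

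Within experiment 1 the log2 difference was 1.51 for Tdrd5, 1.68 for Tdrd1, 1.33 for Mov10l1, 0.83 for Piwil2, 1.20 for Ddx4 and 0.54 for Mael. Within experiment 2 it was 1.88 for Tdrd5, 0.55 for Tdrd1, 0.38 for Mov10l1 and 0.37 for Piwil2, but -0.42 for Ddx4 and -0.087 for Mael. Among the members, Tdrd5 alone kept a difference above 1 in both experiments. Without centring, no gene passed and the adjusted p of Tdrd5 and of Tdrd1 was 0.244, with log2 differences of 1.58 and 1.01. The call at Tdrd1 was also lost without leptonema replicate 1 (0.87, adjusted p = 0.126), zygonema replicate 1 (0.90, adjusted p = 0.110), early pachynema replicate 2 (1.08, adjusted p = 0.0667) or late pachynema replicate 1 (1.00, adjusted p = 0.0530).

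**Figure D4:**
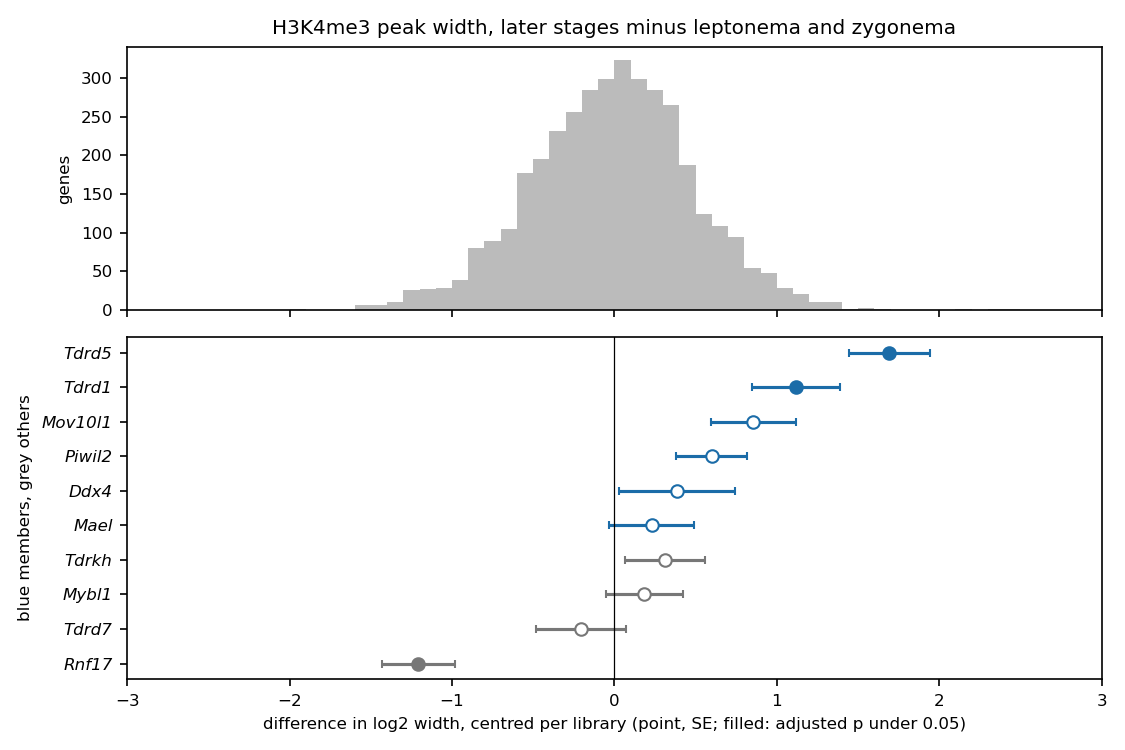
Upper panel: number of genes (vertical axis) by the difference in log2 H3K4me3 peak width, later stages minus leptonema and zygonema, for the 3729 genes tested. Lower panel: the 6 members tested (blue) and 4 other pathway genes (grey), as limma estimates with SE (n = 4 and 6 libraries); filled points passed at an adjusted p under 0.05. The 6 members are right of 0, from 0.23 for Mael to 1.69 for Tdrd5, and Rnf17 is at -1.21.

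The H3K4me2/3 lists had 9 of the 10 members in zygonema and both pachynema stages, and all 10 in leptonema and diplonema, while 64.7%, 59.4%, 53.7%, 55.4% and 53.3% of all genes were called from leptonema to diplonema. All but Piwil4 were called in all 5 lists, as were 47.8% of all genes. Each stage had 1 library, and differences between the stages were not tested for this mark. The width in diplonema divided by that in leptonema had a median of 2.96 over the 9 members, against 1.23 over the 9911 genes called in all 5 lists, and was above 1.23 in 9 of 9. For late pachynema divided by leptonema the median was 2.29 against 1.19, with 8 of 9 above and Ddx4, at 1.09, below. Over 15 other genes of the pathway the ratio of diplonema to leptonema had a median of 1.98, with 10 above 1.23. The ratio of diplonema to leptonema was 5.41 for Piwil1, 3.42 for Tdrd5, 3.10 for Tdrd1, 3.01 for Tdrd9, 2.96 for Mov10l1, 2.38 for Tdrd6, 2.02 for Piwil2, 1.63 for Mael and 1.41 for Ddx4. For Piwil1, Ddx4, Mov10l1, Tdrd1, Tdrd5 and Tdrd9 all 3 later lists had wider peaks than both early lists, in 6 of 10 members and in 15.4% of the 13913 genes called in any of these lists. The diplonema peak was the widest of the 5 for Ddx4, Mov10l1, Tdrd1, Tdrd5, Tdrd6 and Tdrd9, and for 32.5% of the genes called in any of these lists. The H3K4me2/3 and the experiment 2 H3K4me3 lists come from nuclei of the same experiment and are not independent of each other. For early pachynema, the authors report a different purity and amount of starting chromatin for these libraries, so that they are not a matched pair.

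H3K9ac calls followed another course. From leptonema to diplonema the number of members called was 3, 7, 9, 7 and 3, when 14.8%, 41.1%, 35.3%, 8.27% and 1.99% of all genes were called. Only Piwil4 was missing from the early pachynema list. In late pachynema, a list of 1727 peaks, Piwil2, Ddx4, Mael, Mov10l1, Tdrd1, Tdrd5 and Tdrd6 were called, and Mov10l1 ranked 107 of 1714 genes by width. In diplonema, a list of 516 peaks, Piwil1, Ddx4 and Mov10l1 were called. Of the 7 members with a peak in both zygonema and early pachynema, the peak was narrower in early pachynema for Piwil2, Ddx4, Mael and Tdrd9, and wider for Piwil1, Mov10l1 and Tdrd5. Over all genes called in each list, the median H3K9ac width was 992 bp in zygonema and 756 bp in early pachynema.

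A second list held 21 other genes of the pathway. In H3K4me3 between 8 and 16 of them were called per list, with 25.2% to 46.3% of all genes. Mybl1, Tdrkh, Rnf17 and Tdrd7 were called in all 10, as were 18% of all genes. Rnf17, a Tudor domain gene of cytoplasmic granules, was the only one to pass the width test, and it was narrower in the later stages, by -1.21 ± 0.22 (log2, SE; limma adjusted p = 0.0125). Its difference was -1.22 within experiment 1 and -1.20 within experiment 2. Its widths in experiments 1 and 2 were 1064 bp and 1395 bp in leptonema, 1016 bp and 596 bp in zygonema, 447 bp and 301 bp in early pachynema, 363 bp and 350 bp in late pachynema and 349 bp and 600 bp in diplonema. Of the later lists only diplonema experiment 2, just above zygonema experiment 2, overlapped the early range. The call was lost without leptonema replicate 1 (-1.22, adjusted p = 0.0526). Mybl1 (0.19 ± 0.24), Tdrkh (0.31 ± 0.25) and Tdrd7 (-0.21 ± 0.28) did not pass. The H3K4me2/3 peak at Rnf17 measured 1715 bp, 1363 bp, 1412 bp, 1432 bp and 1576 bp from leptonema to diplonema. For this mark the later widths lay between the leptonema and zygonema widths.

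The 5 genes of this second list with the fewest H3K4me3 calls, all at 0 of 10, were Morc1, Dnmt3c and Dnmt3l, which act in transposon silencing in the nucleus, and Prmt5 and Wdr77, the arginine methyltransferase and its partner that modify PIWI proteins. A count of 0 of 10 was found for 45.9% of all genes. Morc1 had H3K4me2/3 peaks in 4 of 5 lists, between 172 bp and 733 bp. The other 4 genes were called in no list of any mark, with the nearest peak of any list at 1344 bp for Dnmt3c, 1028 bp for Dnmt3l, 9855 bp for Prmt5 and 23533 bp for Wdr77. Eef2 and Rpl13a, which all cells use and which were looked up after these values were seen, were also called in no list, among 6745 genes in all. A missing call is therefore not taken as a missing mark.

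For the members called in 2 to 8 of the 10 H3K4me3 lists, the 3 genes with the most alike calls over the 20 lists were named, with ties broken by the correlation of the widths. Those for Piwil1 were Tcam1 and Aldoa, with the same call in 20 of 20 lists and correlations of the widths of 0.973 and 0.891, and Smpd5, 1 of 4 genes with 19 of 20. Those for Tdrd6 were Gk2 and Mapk15, with 20 of 20 and correlations of 0.970 and 0.797, and Pdcl2, 1 of 26 genes with 19 of 20. Those for Tdrd9 were H2afy, Lrrc73 and Borcs7, 3 of the 4 genes with 20 of 20, with correlations of 0.938, 0.923 and 0.887. All these are Pearson correlations over 20 lists that share stages, experiments and list lengths, and are given as a description.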

How the data were processed

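The series measured histone marks by ChIP-Seq in sorted mouse spermatocyte nuclei. Of its 51 samples, the 20 with peak lists for stage-specific H3K4me3 (10), H3K4me2/3 (5) and H3K9ac (5) were used, and the other 31 were not analysed here. The authors aligned reads to mm10 with BWA mem (0.7.12) and called broad peaks in each library with MACS2 (2.1.2), with stage-matched input for H3K4me3. The control used for H3K9ac is not given in the sources used here. The deposited lists give only where each peak starts and ends, in bp, on chromosomes 1 to 19, with no score, signal or read count, so that the depth behind a call cannot be read from them. A deeper or purer library can give more and wider peaks.

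Peaks were assigned to TSS windows (500 bp on either side, minimum overlap 1 bp) in Python (3.11.15), with overlaps checked against bedtools (2.31.1). Calls were compared with two-sided exact permutation tests over libraries (210 splits, 4 against 6) and log2 widths with limma (3.58.1, R 4.3.3), with 1 mean per stage and Benjamini-Hochberg adjustment over all genes tested (threshold 0.05). With 2 libraries per stage, p-values measure the spread between these libraries, which may be technical. The steps were tested on simulated data.

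The genes named were the 10 members. Of 21 other pathway genes, those that passed a test and the 5 with the fewest H3K4me3 calls were named. For members called in 2 to 8 H3K4me3 lists, the 3 genes with the most similar calls were added. The members and lists were chosen with earlier results of these data known. Cell type markers were 6 meiotic, 5 spermatogonial, 6 spermatid, 6 Sertoli, 5 Leydig and 4 macrophage and blood genes. Rhox5, a Sertoli marker, lies outside the chromosomes listed. Spermatogonial markers were called at 0 to 2 of 5 in the H3K4me3 lists and at 3 to 5 in those of H3K4me2/3. Insl3 was the only Leydig marker called. Alternatives were windows of 250 bp and 1000 bp, coverage of at least 50% of a window, peaks at or over the median width, equal list sizes, all transcripts, uncentred or ranked widths, summed widths, genes with widths in 8 libraries, a replicate block and leaving out each library. Values within each experiment were added after seeing the data.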

Additional observations from a re-analysis of the deposited data

How the results depend on the processing

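No gene passed the call test under any alternative run. With all 10 libraries, at least 713 genes would have to share the smallest possible p of 0.00476 for these alone to pass. The count of 0 therefore says nothing about stability. The unadjusted exact p of Piwil1 rose to 0.0833 without leptonema replicate 1, leptonema replicate 2 or zygonema replicate 1. The smallest adjusted p was 0.116 with equal list sizes. The number of genes past the width test was 323 and lay between 300 and 336 for summed widths, windows of 250 bp or 1000 bp and the replicate block (336 genes). It was 0 without centring, where the median log2 difference moved to -0.11, 156 for percentile ranks (138 wider and 18 narrower in the later stages) and 506 with widths in at least 8 libraries, where 5624 genes were tested. There Mov10l1 passed (0.93, adjusted p = 0.0487), and Tdrd9 was included, with a log2 difference of 1.69. Tdrd9 met this rule through its 6 later lists. Its early mean rests on 1 leptonema peak of 147 bp and 1 zygonema peak of 163 bp. Early libraries without a call had no width in the fit, so that the value for Tdrd9 is given as a description. Leaving out each library gave from 44 genes (without leptonema replicate 1) to 373 (without late pachynema replicate 2). The F test passed 20 genes, and 0 without centring, 2 for percentile ranks, 31 for summed widths, 35 with windows of 1000 bp, 75 with 8 libraries, 24 with the replicate block, and 3 to 75 leaving out each library. The cause of these shifts was not tested.

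Tdrd5 passed in each alternative but the one without centring, and in all 10 that left out a library (adjusted p from 0.00642 to 0.0218). Tdrd1 passed in 6 of the 10. Mov10l1 passed without zygonema replicate 2 (1.15, adjusted p = 0.0291) and late pachynema replicate 2 (0.96, adjusted p = 0.0425). Without zygonema replicate 1 the differences of Ddx4 (-0.11) and Mael (-0.11) turned, and that of Tdrd7 did without early pachynema replicate 2 (0.0037). Leaving out the other libraries, these reached 0.88 for Ddx4, 0.56 for Mael and -0.40 for Tdrd7. Within experiment 2 they were -0.42 for Ddx4, -0.087 for Mael and -0.15 for Mybl1. Over 10 pairs of stages the correlation of the deviations of experiment 1 was between -0.15 and 0.11, and over 0.1 in 2. Low correlations cannot show that the libraries of an experiment are unrelated. The replicate block gave 0 genes in the call test, moved the unadjusted exact p of Tdrd6 from 0.0476 to 0.06 and changed no member's side of the adjusted threshold. Windows of 250 bp and 1000 bp and all transcripts left the number of lists with a call the same for each member and mark. With at least 50% of a window covered, Piwil1 was called in 0 of 4 early and 5 of 6 later H3K4me3 lists, and Mov10l1 in all 10.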
